A study of Arabidopsis thaliana with 4 samples.

Results

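SWEET genes encode sugar transporters, and this account covers those that could be followed in root tips of Arabidopsis thaliana, with SWEET11 first. Members were all probe sets paired with 1 gene whose annotated symbol starts with SWEET and a number. That gave 14 genes among 13513 single-gene probe sets. The annotation used paired 503 more of the 22746 probe sets with several genes, and the rest were not assigned to a gene here. A gene is called measured, or said to have its own probe set, only where this annotation paired one with it alone. Other genes may still be on the array. SWEET11 was chosen by its measured difference in signal between the genotypes on these 4 arrays, so its values are a description with no test. The other 13 were taken by name. SWEETIE, a gene outside the transporter family, was left out. Of the 17 numbered SWEET genes of this species, SWEET5 and SWEET15 were measured under the symbols AtVEX1 and SAG29 and are given beside the members. No probe set was paired with SWEET12 alone, and that gene was not analysed here.

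Each genotype was measured on 2 arrays. The sol2 plants carry a mutation in the receptor-like kinase gene SOL2, also called CORYNE, which acts in signalling by CLE peptides. Seedlings of both genotypes grew for 4 days at 23 °C on MS plates in continuous light, and RNA came from the root tip. The labels give neither the allele nor the accession, and they do not say that replicates came from separate cultures. The p-values therefore rest on differences between replicate arrays that may in part be technical.

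SWEET proteins let sugars pass a membrane along their own gradient, in either direction and without an energy source. The family is divided into clades by sequence. Members of clades I and II mostly carry hexoses at the plasma membrane, those of clade III mostly carry sucrose, and those of clade IV sit in the vacuolar membrane. Growing root tips live on sucrose delivered by the phloem. SWEET11, together with SWEET12, is best known from leaf phloem parenchyma, where it releases sucrose into the cell wall space before phloem loading.

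Values are probe-set signals on a linear scale, with medians of the 4 arrays from 142.7 to 160.75. The scaling target is not given in the sources used here. Signals are compared only for the same probe set between arrays, since probes of different genes bind differently. Log2 differences are sol2 minus wild type on the log2(signal + 18.4) scale, which understates changes of dim genes. A probe set was tested when its mean on that scale corresponded to a signal of 80.1 or more. Background was judged by 27 control probe sets for bacterial transcripts, whose highest signal was 34.1. The wild type arrays differed from each other by a median of 0.294 log2 units and the sol2 arrays by 0.182. Across genotypes, the medians for wild type replicate 1 were 0.2495 against sol2 replicate 1 and 0.326 against sol2 replicate 2. For wild type replicate 2 they were 0.220 and 0.189. Of these cross-genotype medians only 0.326 exceeded the wild type replicate median. By this measure the wild type arrays did not form a group apart from sol2. Of 12 root tip markers 3 were measured, all with signals above the controls on every array. Both measured shoot photosynthesis markers, RCA and PSBW, were above them too, so these signals cannot establish root tip identity. The meristem regulator JKD had 143.0 and 183.5 in wild type against 150.6 and 178.5 in sol2, which overlap. UPB1 was lower and AT1G65570 higher on both sol2 arrays, with neither passing the test, and their values are given with the other markers. RNA integrity was followed by 3' to 5' signal ratios of control genes. Of 2 probe set pairs for actin, one gave 1.81 and 2.30 in wild type against 1.72 and 2.81 in sol2 for replicates 1 and 2, and the other 8.45 and 24.5 in wild type against 11.6 and 36.9 in sol2. Both pairs differed more between replicates than between genotypes. Ratios of both GAPDH pairs lay between 0.867 and 1.07. One ubiquitin pair lay between 1.01 and 1.26, and the other was lower in sol2, at 2.46 and 2.29 against 3.02 and 3.87 for wild type.

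SWEET11 (AT3G48740) had signals of 504.7 and 330.5 in the wild type replicates, against 63.8 and 29.9 in those of sol2. Both sol2 arrays lay far below both wild type arrays, and sol2 replicate 2 lay within the range of the bacterial controls. The means were 418 ± 123 in wild type and 46.9 ± 24.0 in sol2 (SD, n = 2). With the sol2 signal that fell below 34.1 raised to that value, the wild type mean was 8.53-fold the sol2 mean. Against sol2 replicate 1, whose signal exceeded the controls, wild type replicates 1 and 2 were 7.91-fold and 5.18-fold higher. The wild type replicates differed from each other by 1.53-fold.

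On the log2 scale SWEET11 differed by -2.76 ± 0.33 (SE), the 9th lowest value of 13648 tested probe sets and the 4th lowest among 7407 of them with 1 gene. Its mean over the arrays passed the filter through wild type, since the sol2 mean on its own lay below it. On each array separately SWEET11 ranked at percentile 74.5 and 64.3 of all probe sets in wild type. In sol2 it ranked at percentile 36.8 and 26.5. The size of the log2 difference depended on the pseudocount and was -1.96 with the 40th percentile of all values added in place of the 20th. In RNA from whole root tips, fewer cells that express a gene and less RNA per cell cannot be told apart.

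**Figure D1:**
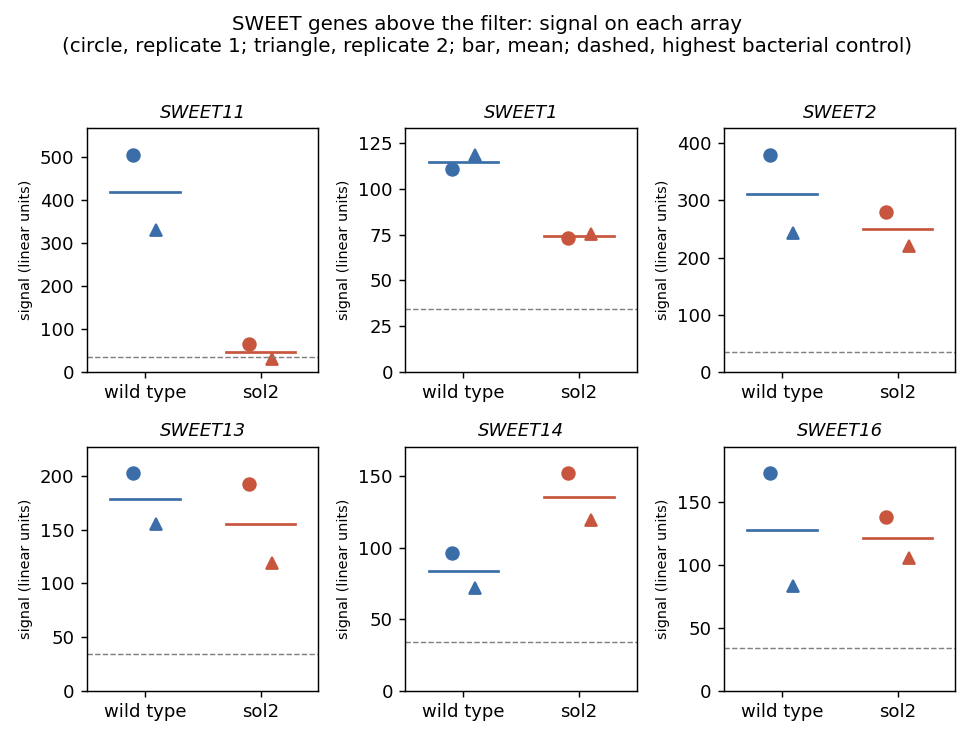
Linear signal of the 6 SWEET genes above the filter on each array, wild type in blue and sol2 in red, with circles for replicate 1, triangles for replicate 2, bars for group means and a dashed line at the highest bacterial control signal (34.1). SWEET11 lies at 504.7 and 330.5 in wild type and at 63.8 and 29.9 in sol2, while SWEET2, SWEET13 and SWEET16 overlap between genotypes.

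The phloem, in which SWEET11 is known to act, was thinly covered. Of 22 phloem marker genes only 2 had a probe set of their own in the annotation used, and both were below the filter. OPS, a membrane protein needed for protophloem differentiation, had 54.7 and 35.8 in wild type against 37.1 and 26.7 in sol2 (log2 -0.33 ± 0.28, adjusted p = 0.860, limma without a filter). The other, AT5G02460, had 47.7 and 39.8 in wild type against 33.0 and 26.7 in sol2 (log2 -0.37 ± 0.24, adjusted p = 0.816). OPS overlapped between genotypes, while AT5G02460 was lower on both sol2 arrays. The sol2 replicate 2 signal of OPS and both sol2 signals of AT5G02460 lay within the control range. Neither gene passed the test. The single xylem marker measured, GUT2 (IRX10), which acts in xylan synthesis, had 448.1 and 317.4 in wild type against 412.0 and 389.8 in sol2, which overlap. The part of phloem cell number in the difference of SWEET11 was not tested.

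The measured genes beside SWEET11 on the chromosome had small log2 differences on the scale used, which understates changes of dim genes. In gene order, the 3 nearest named probe sets on one side were AT3G48710, AT3G48650 and AT3G48640, at 3, 10 and 11 genes away. On the other side they were AT3G48760, AT3G48770 and AT3G48810, at 3, 4 and 10 genes. AT3G48760 was the brightest, with 1122.7 and 987.0 in wild type against 878.6 and 822.0 in sol2 (log2 -0.30 ± 0.19, adjusted p = 0.799, limma). AT3G48710 had 75.4 and 118.2 in wild type against 139.1 and 73.5 in sol2, which overlap. AT3G48810 had 43.7 and 51.2 in wild type against 75.7 and 70.5 in sol2, higher on both sol2 arrays (log2 0.48 ± 0.25, adjusted p = 0.724 without a filter). The remaining 3 had signals of 19.5 or less on every array, within the control range. With the 5th-percentile pseudocount AT3G48640, AT3G48650 and AT3G48770 were at -1.12, -1.11 and -0.45. No neighbour passed the test, and on the scale used their log2 differences lay between -0.43 and 0.48.

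The 5 genes whose profile over the 4 arrays was nearest to that of SWEET11 were sought among 7406 tested single-gene probe sets. The measure was the root mean square difference between log2 profiles, each centred on its own mean. Because this follows the same contrast that picked SWEET11, the matches are a description. AT1G17300 was nearest, with a root mean square difference of 0.140 and signals of 973.6 and 547.7 in wild type against 106.7 and 73.3 in sol2. Like SWEET11 it was higher in replicate 1 than in replicate 2 of each genotype.

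AT1G29180 followed at 0.175, with 343.3 and 295.4 in wild type against 58.4 and 25.4 in sol2. AT2G44370, at 0.299, had almost equal wild type signals of 981.6 and 989.8 and sol2 signals of 129.4 and 111.7. AT1G47400, at 0.360, had 260.0 and 209.8 in wild type against 66.7 and 21.6 in sol2. In all of these, replicate 1 of sol2 was the higher of the sol2 arrays. AT4G01390, at 0.426, was the exception, with 33.4 and 37.3 in sol2 after 266.7 and 189.5 in wild type. Sol2 replicate 2 of AT1G29180 and AT1G47400 and sol2 replicate 1 of AT4G01390 lay within the control range. AT1G29180, AT1G47400 and AT4G01390 passed the filter through wild type, as SWEET11 did, since their sol2 means lay below it. The tables used name these 5 genes by locus only.

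**Figure D2:**
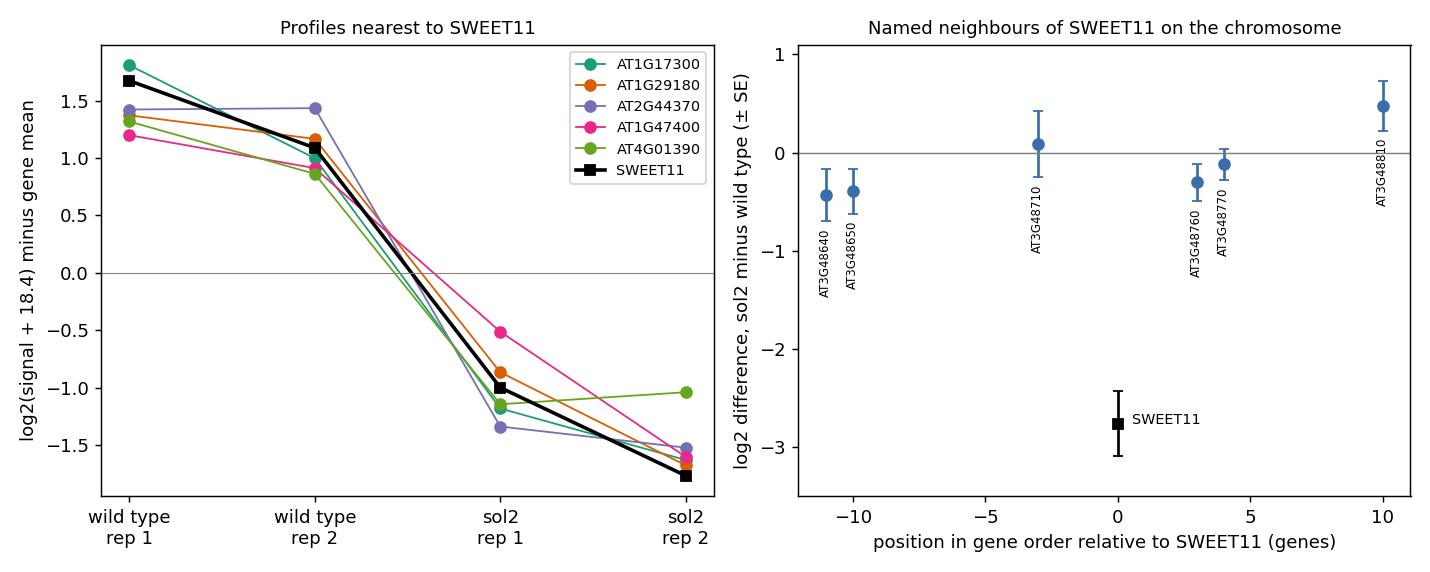
Left, log2(signal + 18.4) minus each gene's mean over the 4 arrays for SWEET11 (black squares) and its 5 nearest profiles (coloured circles), all high on the wild type arrays and low on the sol2 arrays. Right, log2 difference between sol2 and wild type (± SE) against the position in gene order for SWEET11 (-2.76) and 6 named neighbours, which lie between -0.43 and 0.48.

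Besides SWEET11, the members of clade III were SWEET9, SWEET10, SWEET13 and SWEET14. SWEET14 had higher signals in sol2, and the difference did not pass the test. It had 95.9 and 71.9 in wild type against 151.9 and 119.1 in sol2, so that both sol2 arrays lay above both wild type arrays (log2 0.59 ± 0.26, 95% interval -0.02 to 1.20, adjusted p = 0.579, limma). SWEET13, which with SWEET14 is known for sucrose and gibberellin transport in anthers, had 202.6 and 155.4 in wild type against 192.6 and 118.7 in sol2. Its genotypes overlapped, and the interval of the log2 difference was -0.87 to 0.46 (estimate -0.20, adjusted p = 0.953). A fall of the size seen for SWEET11 thus lay outside this interval, as it did for SWEET1, SWEET2 and SWEET16. In the remaining members, SWEET14 among them, wild type signals were too low for a fall that large to appear on this scale. Their intervals, with the lowest bound at -1.28 for SWEET9, therefore cannot decide whether they fell as far.

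SWEET10, a sucrose transporter known from the shoot apex at the floral transition, is the next gene to SWEET13 in the gene order. It had 22.7 and 2.4 in wild type against 25.5 and 47.2 in sol2. Only the last of these signals exceeded the bacterial controls (log2 0.88 ± 0.40, adjusted p = 0.643 without a filter). SWEET9, known for sucrose export in nectaries, had 41.1 and 38.8 in wild type, just above the controls, against 32.3 and 13.7 in sol2, within their range (log2 -0.53 ± 0.30, adjusted p = 0.753). SAG29, which is SWEET15 and known from senescing leaves and seeds, had 26.9 and 20.4 in wild type against 11.9 and 43.2 in sol2, with overlap and only 1 array above the controls.

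Of clade I, SWEET1 and SWEET2 lay above the filter. SWEET1, a glucose carrier of the plasma membrane, had 111.0 and 118.7 in wild type against 72.9 and 75.1 in sol2. Replicates of SWEET1 were close, both sol2 arrays were lower, and the difference missed the threshold (log2 -0.53 ± 0.24, 95% interval -1.08 to 0.03, unadjusted p = 0.0602, adjusted p = 0.598, limma). Like SWEET11, SWEET1 passed the filter through wild type, since its sol2 mean lay below it. SWEET2, a glucose carrier of the vacuolar membrane known for its role in roots, had 380.3 and 242.8 in wild type against 280.5 and 220.8 in sol2. Its sol2 replicate 1 lay between the wild type arrays and replicate 2 just below both (log2 -0.27 ± 0.27, adjusted p = 0.924). SWEET3 had 43.1 and 39.1 in wild type against 26.9 and 28.5 in sol2, on either side of the highest control signal (log2 -0.37 ± 0.23, adjusted p = 0.794 without a filter).

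Clade IV showed unlike values for its 2 members. SWEET17, a fructose carrier of the vacuolar membrane that is known from roots, had 57.2 and 28.9 in wild type against 111.0 and 83.7 in sol2. Both sol2 arrays of SWEET17 exceeded both wild type arrays, and wild type replicate 2 lay within the control range. Its log2 difference of 0.94 ± 0.33 was the largest positive one in the family on this scale (95% interval 0.11 to 1.77 before adjustment, unadjusted p = 0.0325, adjusted p = 0.491, limma without a filter). With the 5th-percentile pseudocount the difference of SWEET10 was larger, at 1.77 against 1.20 for SWEET17. SWEET16, the other vacuolar member, had 173.2 and 83.7 in wild type against 138.1 and 105.6 in sol2. The sol2 arrays lay between the wild type arrays, so no direction can be read (log2 -0.01 ± 0.34, adjusted p = 0.9996).

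Clade II was near background throughout. SWEET4, a hexose carrier known from the vasculature, had 37.1 and 22.4 in wild type against 17.2 and 42.2 in sol2, with full overlap. SWEET6 had 43.5 and 40.5 in wild type against 33.8 and 21.4 in sol2 (log2 -0.41 ± 0.26, adjusted p = 0.800 without a filter). SWEET7 had between 1.2 and 4.2 on all 4 arrays. SWEET8, known for its part in pollen wall formation, had 24.9 and 24.1 in wild type against 28.6 and 33.2 in sol2, all within the control range. AtVEX1, which is SWEET5 and named for the vegetative cell of pollen, had between 10.7 and 24.2.

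**Figure D3:**
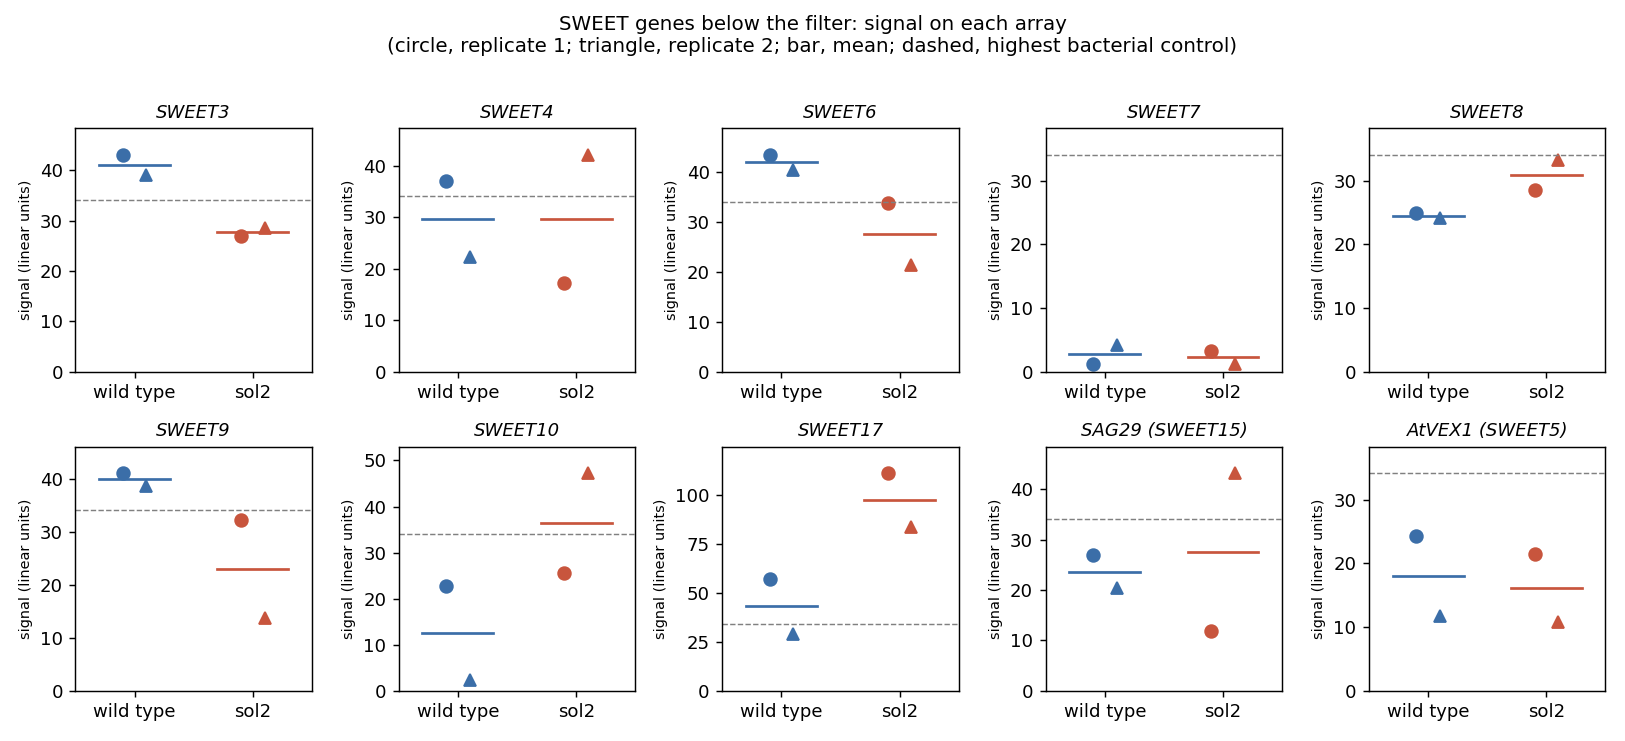
Linear signal of the 8 SWEET genes below the filter and of SAG29 (SWEET15) and AtVEX1 (SWEET5) on each array, with symbols as in the plot of genes above the filter and the dashed line at 34.1. Most signals lie near or under the line, and SWEET17 alone has both sol2 arrays (111.0 and 83.7) far above it.

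Over the family, 6 of the 14 members lay above the filter and 8 below. Of the 13 members other than SWEET11, none passed the test at an adjusted p under 0.05, either among the 5 above the filter or in the fit without a filter. The background was 1.25% of tested probe sets called in the fit with the filter and 0.303% in the fit without it, so a count of none among 13 is not a result about the family. At an unadjusted p under 0.05, none of the 5 above the filter and 1 of the 13 in the fit without a filter, SWEET17, fell under the threshold. Over all probe sets that share was 8.9% with the filter and 8.83% without it. Their log2 differences ran from -0.53 to 0.94 with a median of -0.03, and 9 were negative and 4 positive. The median over all tested probe sets was 0.0043.

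Groups that did not overlap were found for 9 of the 14 members. Signals of SWEET1, SWEET3, SWEET6, SWEET9 and SWEET11 were lower on both sol2 arrays, and those of SWEET8, SWEET10, SWEET14 and SWEET17 were higher. Over all 22746 probe sets the groups did not overlap in 36.3%, with sol2 lower in 19.2% and higher in 17.1%. Only SWEET1 and SWEET14 of the 9 were above the bacterial controls on every array. SWEET11 stood apart from the other members in the size of its log2 difference, which is how it was chosen.

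**Figure D4:**
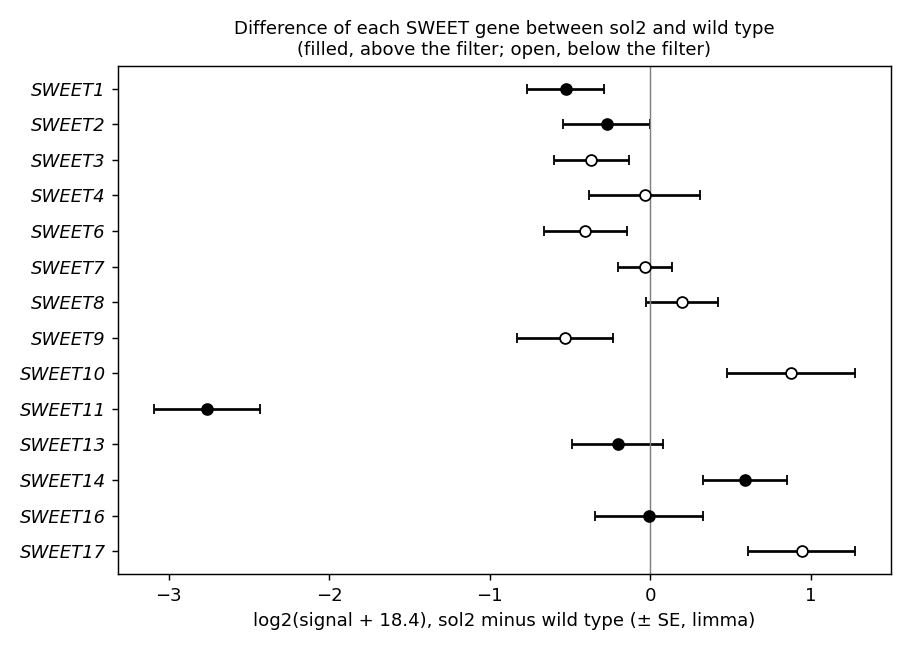
Log2 difference between sol2 and wild type (horizontal axis, log2(signal + 18.4), ± SE from limma) for each of the 14 SWEET genes, filled above the filter and open below it. SWEET11 lies at -2.76, and the others lie between -0.53 and 0.94.

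**Figure D5:**
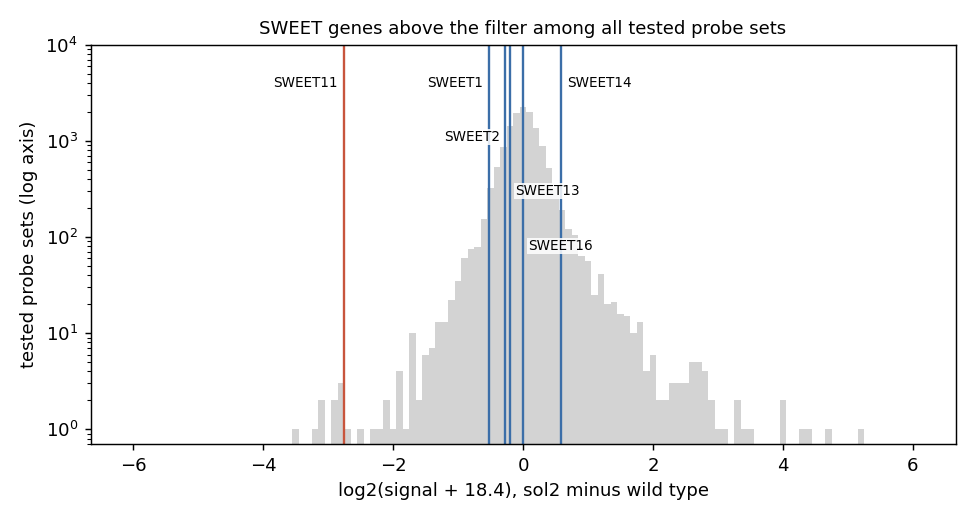
Histogram of log2 differences of all 13648 tested probe sets (vertical log axis), with lines at the 6 SWEET genes above the filter. SWEET11 (-2.76) lies in the sparse left tail and the other 5 lie between -0.53 and 0.59.

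Other genes of sugar transport and use were taken from lists. Of 32 monosaccharide and polyol transporters 10 had a probe set of their own and 4 were above the filter. None rose or fell by the test, and the 4 had negative log2 differences with a median of -0.12. AT5G61520, of this list, had 61.9 and 65.1 in wild type against 25.6 and 27.1 in sol2, with close replicates and no overlap (log2 -0.87 ± 0.24, unadjusted p = 0.0120, adjusted p = 0.331, limma without a filter). AT2G18480 had 41.2 and 29.7 in wild type against 43.7 and 5.2 in sol2, which overlap.

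Of 24 genes for sucrose synthesis and cleavage 4 had a probe set of their own and 3 were above the filter, none of them called, with a median log2 difference of -0.12. AT2G35840 had 898.7 and 774.8 in wild type against 661.7 and 611.8 in sol2, lower on both sol2 arrays (log2 -0.38 ± 0.20, adjusted p = 0.694, limma). ATSPS4F, a sucrose phosphate synthase, had 2.1 and 11.2 in wild type against 35.2 and 9.6 in sol2, near background. None of the 9 proton-coupled sucrose transporters, which take up sucrose after SWEET proteins have released it, had a probe set of its own in the annotation used. Of 12 sugar response genes only APL3, a subunit of the first enzyme of starch synthesis, was measured, with 45.5 and 61.5 in wild type against 76.9 and 87.7 in sol2 (log2 0.49 ± 0.27, adjusted p = 0.744 without a filter).

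Among the root tip and shoot markers none was called in the fit of all 4 arrays without replicate number. A model that also fitted replicate number, whose pairing the labels do not give, called UPB1, AT1G65570 and RCA. AT1G65570, from the list of root tip markers, had 285.6 and 515.8 in wild type against 575.5 and 631.3 in sol2 (log2 0.62 ± 0.29, adjusted p = 0.599, limma). UPB1, a bHLH factor known to set where root cells stop dividing, had 961.9 and 650.3 in wild type against 526.2 and 380.3 in sol2 (log2 -0.80 ± 0.26, adjusted p = 0.326). When wild type replicate 2 was left out, both passed, with log2 differences of 1.03 for AT1G65570 and -1.07 for UPB1. Of 10 shoot photosynthesis genes 2 were measured. RCA, the activase of Rubisco, had 296.5 and 251.3 in wild type against 183.7 and 147.8 in sol2, and PSBW, a photosystem subunit, had 68.9 and 131.9 against 71.2 and 94.3, with adjusted p of 0.373 and 0.968. In all, 13 genes of the 8 lists outside the SWEET family lay above the filter. Without replicate number in the model none of them was called. An unadjusted p under 0.05 (limma) was found for 3, beside 8.9% of all tested probe sets. Those 3 were UPB1, RCA and TMT1, a sugar carrier of the vacuolar membrane. TMT1 had 3449.9 and 3167.7 in wild type against 2517.5 and 2609.9 in sol2 (log2 -0.36 ± 0.16, adjusted p = 0.560), lower on both sol2 arrays.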

How the data were processed

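Biotin-labelled cRNA from root tips was hybridised to 1 array per sample, per the labels' protocols. The deposited values are linear intensity values, 1 per probe set and array; GCOS is the tool named in the submitters' processing notes, and the algorithm and scaling target are not given in the sources used here. Of 22810 probe sets 64 controls were left out. Probe sets were named through the platform annotation, and loci and gene order were read from RefSeq (TAIR10.1); 13508 of 13513 single-gene probe sets matched a locus.

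Signals were transformed as log2(signal + 18.4), the 20th percentile of all values, with no further normalization. Probe sets at or above the 40th percentile of the mean (13648) were tested with limma 3.58.1 in R 4.3.3 (lmFit, eBayes with intensity trend, two-sided, Benjamini-Hochberg over all tested, threshold 0.05); members below came from the same fit on all 22746. Precision is limited by the 2 arrays of each genotype. Members and lists were chosen with earlier results of these data known. Named genes were all SWEET genes, called members of each list or otherwise the 2 with the largest change, 5 nearest profiles and 3 neighbours on each side; TMT1, JKD, SAG29, AtVEX1 and the other genes named beside counts were chosen after their values were seen. Alternatives covered normalization, pseudocount, filter, prior variance, a replicate block and omission of each array. Tables were made with Python 3.11.15, numpy 2.4.6 and pandas 2.3.3, and figures with matplotlib 3.10.9.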

Additional observations from a re-analysis of the deposited data

How the results depend on the processing

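All alternatives were planned. SWEET11 stayed lower in sol2 under the 11 alternatives in which it passed the filter. Its log2 difference was -1.96 with the 40th-percentile and -3.15 with the 5th-percentile pseudocount, and ranged from -3.14 to -2.38 with arrays left out in turn. With the 60th-percentile filter SWEET11, SWEET1, SWEET13, SWEET14 and SWEET16 were not tested. No other SWEET gene was called under those of the 12 alternatives that tested it. Their sign turned in 9 instances, all in SWEET2, SWEET4, SWEET7, SWEET13 and SWEET16. Calls over all probe sets were 60 higher and 9 lower without a filter and 68 and 15 with the 60th-percentile filter, which change the number tested. With arrays left out they ranged from 107 to 876 higher and 46 to 549 lower, and were 425 and 144 without wild type replicate 1 and highest without wild type replicate 2; a genotype left with 1 array takes its spread from the other. Of the lists, 0 to 2 members were called then, both without wild type replicate 2, namely UPB1 (log2 -1.07) and AT1G65570 (1.03). The labels give no pairing of replicate numbers, and across probe sets the replicate differences of the genotypes correlated at 0.441. Under the replicate block, calls were 660 higher and 462 lower, with 3 list members (UPB1, AT1G65570 and RCA) and no other SWEET gene called. The causes were not tested.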

Other observations

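SWEETIE, which shares only its name with the transporter family and is known from carbohydrate metabolism, had signals of 263.7 and 487.1 in wild type against 436.6 and 585.8 in sol2. Its genotypes overlapped (log2 0.47 ± 0.31, adjusted p = 0.820, limma).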
